A study of Mus musculus with 19 samples.

Results

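T-bet, encoded by Tbx21, and Eomesodermin, encoded by Eomes, are the T-box transcription factors of cytotoxic lymphocytes, and their levels were followed here over every group of a study of CD8 T lymphocytes given an active Stat5. The members were the probe sets annotated to Tbx21 alone or to Eomes alone. There was 1 such probe set for each gene and none shared with another gene, so 2 of 35557 probe sets on the array and 2 of 19938 measured genes are described. Tbx21 (probe set 10390328, Entrez gene 57765) lies on chromosome 11 at 97098007 to 97115331, and Eomes (probe set 10589994, Entrez gene 13813) on chromosome 9 at 118478186 to 118486132, in GRCm38.p6.

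T-box factors bind DNA through the conserved T-box domain. In an activated CD8 T cell, T-bet is induced through the antigen receptor and interleukin-12 with STAT4, and it drives interferon-gamma production, cytotoxicity and migration to inflamed tissue through Cxcr3. Eomes is induced by cytokines that include interleukin-2 and interleukin-15, which signal through STAT5; it shares many targets with T-bet, including perforin and granzyme genes, and is needed for the upkeep of memory CD8 T cells. Together they keep CD8 T cells from taking up interleukin-17 production, and T-bet also holds back type 2 genes.

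RNA of purified CD8 T lymphocytes was measured on 19 mouse gene arrays. All TCRP1A cells expressed the same transgenic antigen receptor and came from mice of Rag-1-/- B10.D2 background. They were naive (n = 4), control effectors kept 72 h with their cognate antigen (n = 4), effectors carrying Stat5ca, a constitutively active Stat5, and GFP+ at 72 h (n = 2), control cells recovered from congenic hosts after transfer (n = 2, days 18 and 120) and Stat5ca cells recovered after transfer (n = 4, day 20). The T-betKO Stat5ca cells (n = 3, days 14, 14 and 54) were given antibodies to CD3 and CD28, not antigen, and were also recovered after transfer. Their labels name the strain C57BL/6 beside the background B10.D2 and another labelling protocol. The control cells are not described as transduced, so active Stat5 cannot be told apart from transduction, nor, at 72 h, from selection for GFP. Separate animals or cultures are not named for the arrays of a group, so p-values rest on the spread between these arrays, which may be technical.

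Values are log2 signals, so a step of 1 is a doubling, and background was set at 7.32, the 95th percentile of olfactory and vomeronasal receptor genes. Cd3e and Cd8a, which define the labelled cell type, were far above it on every array. The defining B-cell markers Ms4a1 and Cd79a were under it in every group. Of the 9 markers on the B-cell list, 4 to 7 were under it in each group, and Cd79b and Ighm were above it in all 6. Of the 18 myeloid markers, 14 were under background in Stat5ca cells at 72 h, where their mean level was 7.08 to 7.10; it was 7.90 to 11.63 in naive cells, 8.07 to 8.76 in control cells at 72 h, 12.09 to 12.21 in transferred control cells, 9.56 to 10.41 in transferred Stat5ca cells and 10.52 to 12.14 in T-betKO cells. The mean of the dendritic-cell list was 8.16 to 9.93 in naive cells, 7.32 to 7.43 in both groups at 72 h, 10.45 to 10.80 in transferred control cells, 9.62 to 9.78 in transferred Stat5ca cells and 9.30 to 10.19 in T-betKO cells. NK cells express both T-box genes; their defining markers Ncr1 and Klrb1c were under background at 72 h in both groups and above it on average in the other 4 groups. In bulk RNA, fewer cells of a type and less RNA per cell cannot be told apart.

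The 250 bases upstream of each start site are shown because both genes rose in some comparisons and only 1 of them changed in others. They come from RefSeq (GRCm38.p6), read 5′ to 3′ on the strand of the gene, with capitals marking CG dinucleotides. The Tbx21 window is chr11:97115332-97115581 on the minus strand, and the Eomes window is chr9:118477939-118478188 on the plus strand, ending a few bases inside the outer bound of the gene given above.
Tbx21: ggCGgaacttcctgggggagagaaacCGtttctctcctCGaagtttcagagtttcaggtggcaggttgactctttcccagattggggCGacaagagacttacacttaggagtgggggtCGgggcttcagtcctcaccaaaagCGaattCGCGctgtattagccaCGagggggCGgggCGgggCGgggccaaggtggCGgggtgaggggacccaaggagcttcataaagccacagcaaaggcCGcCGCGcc
Eomes: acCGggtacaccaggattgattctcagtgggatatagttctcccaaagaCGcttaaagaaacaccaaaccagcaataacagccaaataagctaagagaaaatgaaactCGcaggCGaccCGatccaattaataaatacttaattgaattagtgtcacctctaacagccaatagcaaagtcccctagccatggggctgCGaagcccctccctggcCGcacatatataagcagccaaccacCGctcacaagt
The Tbx21 window was 60.8% G and C with 16 CG dinucleotides, and the Eomes window was 46.4% G and C with 8. Over 32851 promoters of the same length the medians were 52.4% and 6. On either strand neither window held TTCNNNGAA, the spacing STAT factors bind (found in 7.02% of promoters), TCACAC, a core of the T-box site (12.3%), or TATAAA (12.4%). Only these exact letters were searched. The Eomes window holds TATATAAG near its end, a variant of TATAAA that was not counted. All these counts are of letters in a short window and say nothing of binding elsewhere.

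Tbx21 was lowest in naive cells and in T-betKO cells, where it was still above background on every array, and high everywhere else. The naive arrays 33, 34, 35 and 36 gave 8.10, 8.63, 8.63 and 8.81. Control cells at 72 h gave 11.04, 11.19, 11.19 and 10.999 (arrays 1 to 4), and Stat5ca cells at 72 h gave 10.93 and 10.72 (arrays 9 and 10). All 6 effector arrays at 72 h thus lay above all 4 naive arrays. Transferred control cells gave 11.24 on day 18 and 11.01 on day 120 (arrays 30 and 32). Transferred Stat5ca cells gave 11.77, 11.77, 11.97 and 11.81 (arrays 11 to 14), above every other array of the study. T-betKO cells gave 8.18, 8.19 and 8.34 (arrays 39, 40 and 41), within the range of the naive arrays.

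Eomes had another profile, with its lowest levels shared by naive cells and Stat5ca cells at 72 h, and wide spreads within 3 groups. The naive arrays gave 8.34, 8.84, 8.98 and 8.63 in the same order. Control cells at 72 h gave 11.41, 9.77, 9.57 and 11.46, so that arrays 1 and 4 lay well above arrays 2 and 3. Stat5ca cells at 72 h gave 9.21 and 8.99, just above the highest naive array and below all 4 control arrays of that time. Transferred control cells gave 10.47 on day 18 and 9.65 on day 120. Transferred Stat5ca cells gave 11.77, 11.91, 11.82 and 11.86, the tightest group for this gene (SD 0.06). T-betKO cells gave 11.28 and 10.98 on day 14 and 12.12 on day 54, the last being the highest Eomes value of the 19 arrays.

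**Figure D1:**
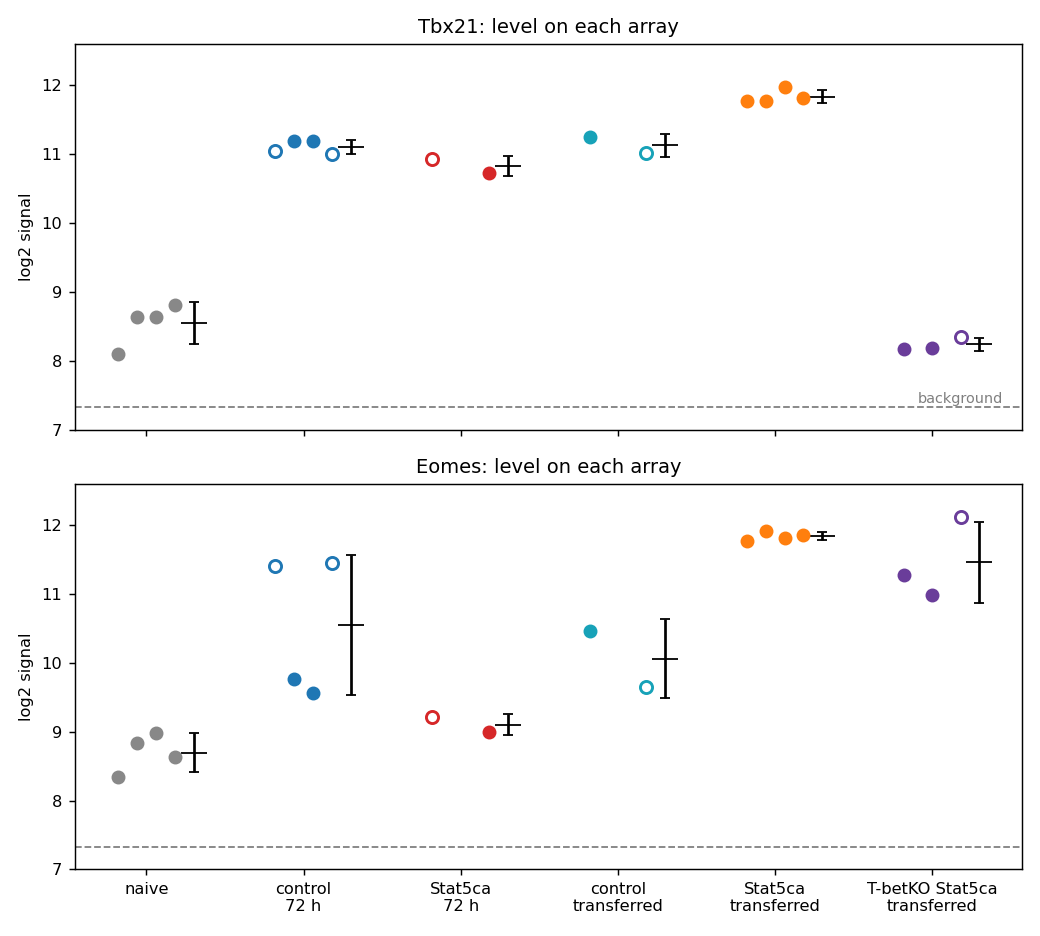
Log2 signal of Tbx21 (top) and Eomes (bottom) on each array of the 6 groups, with the group mean and SD as a black bar and the background of 7.32 as a dashed line; open circles are arrays with Xist under background. Tbx21 is near 8 to 9 in naive and T-betKO cells and above 10.7 in all other groups, while Eomes splits into a high and a low pair in control cells at 72 h and is above 10.9 in every T-betKO array.

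Ordered by group mean (± SD), Tbx21 ran from 8.24 ± 0.09 in T-betKO cells (n = 3) through 8.54 ± 0.31 in naive cells (n = 4), 10.83 ± 0.15 in Stat5ca cells at 72 h (n = 2), 11.11 ± 0.10 in control cells at 72 h (n = 4) and 11.13 ± 0.16 in transferred control cells (n = 2) to 11.83 ± 0.10 in transferred Stat5ca cells (n = 4). Of the 5 steps between neighbours, limma called the step from naive to Stat5ca 72 h cells (2.28, adjusted p = 2.11e-07; 28.6% of all genes called) and the last one (0.70, adjusted p = 0.00351; 25.4% called). The other 3 steps were not called, T-betKO against naive cells among them (−0.31, adjusted p = 0.101). That step was called without naive array 33 (−0.45, adjusted p = 0.00375), without arrays 33 and 35 (−0.48) and with array weights (−0.47). The order for Eomes ran from 8.70 ± 0.28 in naive cells through 9.10 ± 0.16 in Stat5ca 72 h cells, 10.06 ± 0.58 in transferred control cells, 10.55 ± 1.02 in control cells at 72 h and 11.46 ± 0.59 in T-betKO cells to 11.84 ± 0.06 in transferred Stat5ca cells. No neighbours in that order differed by a called amount. T-betKO cells stood 0.91 above control cells at 72 h (adjusted p = 0.0827), called without control array 1 or 4 (1.20 and 1.21), without both (1.79) and with Xist as a covariate (1.004). Transferred control cells stood 0.96 above Stat5ca 72 h cells (adjusted p = 0.173), called when only those groups were fitted (adjusted p = 0.0397).

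Activation of control cells was the first comparison, 72 h effectors against naive cells. Both genes rose. Tbx21 rose by 2.56 ± 0.12 (SE; adjusted p = 1.68e-09), a 5.91-fold rise, and Eomes by 1.85 ± 0.36 (adjusted p = 0.000755), a 3.61-fold rise, in a comparison in which 46.8% of all genes were called. No naive array overlapped an effector array for either gene, as held for 36.2% of all genes. Without effector arrays 1 and 4 the rise of Eomes was 0.97, and without arrays 2 and 3 it was 2.74, called in both cases (adjusted p = 0.0022 and 6.48e-07), while that of Tbx21 was 2.65 and 2.48.

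Among cytokine inputs to the T-box genes, 9 of 27 measured genes rose on activation and 10 fell, where 22.0% of all genes were called higher and 24.9% lower. Il12rb2, the inducible chain of the interleukin-12 receptor, rose by 4.19 ± 0.21, Il2ra, the high-affinity chain of the interleukin-2 receptor, by 4.04 ± 0.29 and Il2rb, the chain shared by interleukin-2 and interleukin-15, by 1.80 ± 0.07. Il6ra fell by 3.40 ± 0.15. Of 21 genes that T-bet or Eomes activate, 10 rose, with Gzmb up by 5.03 ± 0.29, and 5 fell (2 without naive arrays 34 and 36), with Ccl5 down (−1.44 ± 0.19) and Prf1, which encodes perforin, down (−1.37 ± 0.13). Markers of other cells were also called lower at 72 h: 4 of 7 NK, 10 of 18 myeloid, 6 of 7 dendritic-cell and 5 of 9 B-cell markers, with none higher. Of 9 T-cell markers 2 rose and 2 fell. The part of other cells in the falls of Ccl5 and Prf1 was not tested. Of 23 partner and opposing factors, 8 rose and 6 fell; Irf4, which follows the strength of antigen-receptor signalling, rose by 2.75 ± 0.21 and Klf2, a factor of resting T cells, fell by 2.58 ± 0.18.

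The split of Eomes among the 4 control arrays at 72 h went with Xist, the RNA of the inactive X chromosome, which is made in female cells. Arrays 1 and 4, with Eomes at 11.41 and 11.46, had Xist at 6.18 and 6.35, under background. Arrays 2 and 3, with Eomes at 9.77 and 9.57, had Xist at 12.92 and 12.84. The difference between the pairs was 1.77 for Eomes, the 21st largest of 19938 genes, and −0.17 for Tbx21, the 7552nd. Marker lists differed between the pairs as well: the myeloid list was 8.76 and 8.71 on arrays 1 and 4 against 8.07 and 8.11 on arrays 2 and 3, and the T-cell list 12.52 and 12.51 against 12.78 on both. Their part in the split was not tested. The pairs were chosen after the values were seen and did not overlap for 54% of all genes, so no test was made.

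In the other groups that held both kinds of array, Eomes did not follow Xist in 1 direction. It was 9.21 with low and 8.99 with high Xist in Stat5ca cells at 72 h, 9.65 with low and 10.47 with high Xist in transferred control cells, and 12.12 with low against 11.28 and 10.98 with high Xist in T-betKO cells. In the last 2 groups Xist moved with the day of recovery, and the 2 cannot be told apart. All naive arrays had Xist of 12.65 or more, and transferred Stat5ca cells had 12.67 to 12.73 on 3 arrays and 10.09 on array 13.

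**Figure D2:**
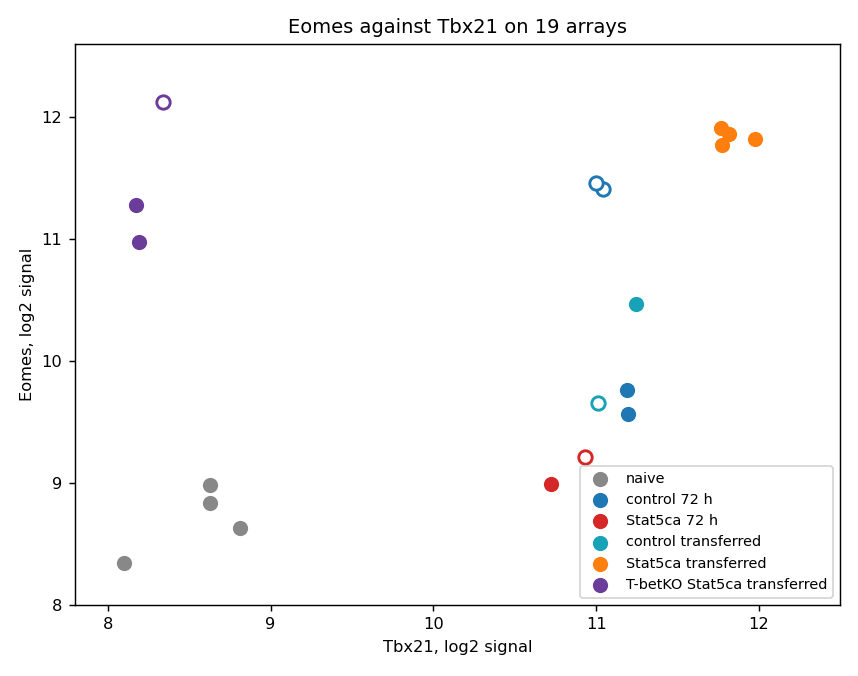
Eomes against Tbx21, both as log2 signal, with 1 point per array (19 arrays) and colours for the 6 groups; open circles are arrays with Xist under background. Transferred Stat5ca cells lie together at the top right, T-betKO cells at the top left with Tbx21 of 8.18 to 8.34, and the control 72 h arrays form a high and a low pair on the Eomes axis at nearly the same Tbx21.

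At 72 h the effect of active Stat5 in fresh effectors was given by Stat5ca cells (n = 2) against controls (n = 4). Stat5a rose by 1.50 ± 0.13 (adjusted p = 1.31e-05), and Stat5b was 0.10 ± 0.12 apart (adjusted p = 0.699). Whether the Stat5a signal came from the introduced Stat5ca or from the cell's own gene was not tested, here or after transfer. Neither T-box gene was called, in a comparison that called 5.72% of all genes. Tbx21 differed by −0.28 ± 0.15 (adjusted p = 0.334; 95% interval −0.61 to 0.05). Eomes differed by −1.45 ± 0.44 (adjusted p = 0.0682; 95% interval −2.39 to −0.51), with both Stat5ca arrays under all 4 control arrays, as for 32.9% of genes. Within arrays of low Xist the Eomes difference was −2.22 (1 against 2 arrays) and within those of high Xist −0.68 (1 against 2), and for Tbx21 it was −0.09 and −0.47. With array weights estimated over all genes the Eomes difference was −1.99 (adjusted p = 0.000695).

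Of the 21 genes that T-bet or Eomes activate, 18 were not called in Stat5ca cells at 72 h and 3 fell, where 2.37% of all genes were called higher and 3.35% lower. Those 3 were the killer-cell receptor gene Klrc1 (−2.26 ± 0.37, or −0.86 counted from background), the chemokine gene Xcl1 (−2.15 ± 0.44) and Gzma, encoding granzyme A (−1.86 ± 0.41). Without Stat5ca array 10, none of the 3 was called. Of 27 cytokine inputs 6 rose and 1 fell. The rises included Stat5a itself and Il18r1 of the interleukin-18 receptor (0.79 ± 0.10; adjusted p = 0.139 with all 19 arrays in the fit), and Il2rb fell by 0.36 ± 0.09 (adjusted p = 0.0254). The myeloid list was lower on both Stat5ca arrays than on any control array, 7.08 to 7.10 against 8.07 to 8.76. With it as a covariate the Eomes difference was −1.26 (adjusted p = 0.121) and that of Tbx21 −0.15 (adjusted p = 0.654).

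Transferred control cells (n = 2) were set against naive cells and against the 72 h effectors. Tbx21 was still 2.58 ± 0.15 above naive cells (adjusted p = 3.75e-07) and 0.02 ± 0.15 from the 72 h effectors (adjusted p = 0.943; 95% interval −0.30 to 0.35). Eomes was 1.36 ± 0.44 above naive cells (adjusted p = 0.0447) and −0.49 ± 0.44 from the effectors (adjusted p = 0.446; 95% interval −1.43 to 0.45). The comparison with naive cells called 17.7% of genes and that with effectors 37.5%. The Eomes call against naive cells did not hold in 9 settings beside those that left out 1 array, with the myeloid list as a covariate among them (1.05, adjusted p = 0.343), nor without naive array 33, 35 or 36 or either transferred control array (0.95 to 1.77).

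Around the 2 factors, transferred control cells had Ifng, encoding interferon-gamma, up by 3.49 ± 0.31 against naive cells and Klrk1, an activating killer-cell receptor gene, up by 3.15 ± 0.33; 11 of the 21 activated genes rose (7.94% of all genes higher, 9.81% lower) and 10 were not called, or 6 rose when only these 2 groups were fitted. Against the 72 h effectors 8 rose and 6 fell (13.1% of all genes higher, 24.4% lower), with Ifng up by 3.25 ± 0.31 and Ccl5 by 3.07 ± 0.24, and Gzmb down (−2.69 ± 0.35). Il2ra fell by 3.33 ± 0.35 and Il12rb2 fell by 2.49 ± 0.26. With the myeloid list as a covariate the 8 rises became 3.

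After transfer the same question was put to Stat5ca cells (n = 4) against control cells (n = 2), and here both T-box genes rose. Tbx21 rose by 0.70 ± 0.15 (adjusted p = 0.00351), a 1.63-fold rise, and Eomes by 1.78 ± 0.44 (adjusted p = 0.00796), a 3.43-fold rise, where 25.4% of genes were called. All 4 Stat5ca arrays were above both control arrays for both genes, as for 51.0% of all genes. The calls rest on control array 32 of day 120: without it, against the day 18 array alone, the differences were 0.59 (adjusted p = 0.0642) and 1.37 (adjusted p = 0.126). Those are also the values among arrays of high Xist. The myeloid list was higher in the control cells (12.09 to 12.21 against 9.56 to 10.41), as was the dendritic-cell list (10.45 to 10.80 against 9.62 to 9.78). With the myeloid list as a covariate the rises were 0.89 and 2.06, both called. The T-cell list was higher in the Stat5ca cells, at 12.56 or more on each array against 11.88 to 12.09 in the control cells. Of its 9 markers, 7 were called higher and 0 lower. The part of T-cell content in the rises of Tbx21, Eomes and other genes in this comparison was not tested.

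Of the 21 genes that T-bet or Eomes activate, 16 rose with Stat5ca after transfer, 1 fell and 4 were not called. The median change of the list was 1.03, against 0.08 over all genes, of which 16.9% were called higher and 8.46% lower. Gzma rose by 4.16 ± 0.41, the late-effector receptor gene Klrg1 by 3.53 ± 0.41 (3.20 counted from background) and Gzmb by 3.29 ± 0.35. Ifng rose by 1.56 ± 0.31 and Cxcr3, a chemokine receptor that T-bet induces, by 0.58 ± 0.19. The gene that fell, Il10, was under background in both groups. Of 14 genes that the T-box factors restrain, 2 rose and 1 fell, the last being Maf (−2.43 ± 0.38).

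Several inputs moved as well, where 16.9% of all genes were called higher and 8.46% lower. Il2ra rose by 2.99 ± 0.35 and Il12rb2 by 1.65 ± 0.26, among 8 of 27 cytokine inputs that rose, while Il6st, Il7r and Il6ra were among 7 that fell (−1.41 ± 0.16, −1.32 ± 0.20 and −1.20 ± 0.18). Stat5a rose by 1.44 ± 0.13 and Stat5b fell by 0.36 ± 0.12. Of 23 partner and opposing factors 7 rose, with Irf4 up by 1.40 ± 0.26 and Ikzf3 up by 0.91 ± 0.09, and 2 fell, with Bcl6, a repressor found in memory precursors, down (−1.19 ± 0.16). Of the NK markers, Klrb1c rose by 3.40 ± 0.36 and Ncr1 differed by −0.27 ± 0.65 (adjusted p = 0.811). The mean of the NK list was 9.13 to 9.67 on the Stat5ca arrays and 9.37 to 9.64 on the control arrays. The largest called rises and falls in this comparison, up to 3 of each per gene list, numbered 18 genes. With the myeloid list as a covariate 13 of them kept direction and call and 5 did not. The part of myeloid cells or of T-cell content in these changes was not tested.

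Between 72 h and recovery, Stat5ca cells gained Tbx21 by 1.01 ± 0.15 (adjusted p = 0.000241) and Eomes by 2.74 ± 0.44 (adjusted p = 0.000395), the latter a 6.67-fold rise, where 21.3% of genes were called. Of the activated genes 15 of 21 rose (8.61% of all genes higher, 12.7% lower) and 6 were not called, with a median change of 1.55 against −0.02 over all genes. Klrc1 rose by 6.41 ± 0.37 (5.02 counted from background) and Gzma by 4.43 ± 0.41. NK and myeloid markers rose in the same comparison, Ncr1 from 6.24 ± 0.55 to 9.06 ± 0.90 and Csf1r from 7.13 ± 0.24 to 11.02 ± 0.58 (SD). With the myeloid list as a covariate the gains were 0.71 and 2.30, both called.

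The Stat5ca effect, meaning the difference of Stat5ca from control cells, thus differed between 72 h and recovery after transfer. The contrasts also differ in recovery from hosts, the GFP+ label, days and the levels of the myeloid and T-cell lists, which cannot be told apart from time. The difference of the effects, after transfer minus at 72 h, was 0.99 ± 0.22 for Tbx21 (adjusted p = 0.00574) and 3.23 ± 0.62 for Eomes (adjusted p = 0.00263), in an interaction that called 17.8% of genes. For Eomes this was the 21st largest difference in size of 19938 genes. Without control 72 h arrays 1 and 4 it was 2.34 for Eomes and without arrays 2 and 3 it was 4.11, both called. Without transferred control array 32 the differences were 0.87 and 2.82, also called. Of the 21 activated genes 13 rose in this interaction (12.3% of all genes higher, 5.48% lower) and 8 were not called, led by Gzma (6.02 ± 0.58), Gzmk (4.28 ± 0.45) and Klrc1 (4.28 ± 0.52, or 2.88 counted from background).

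**Figure D3:**
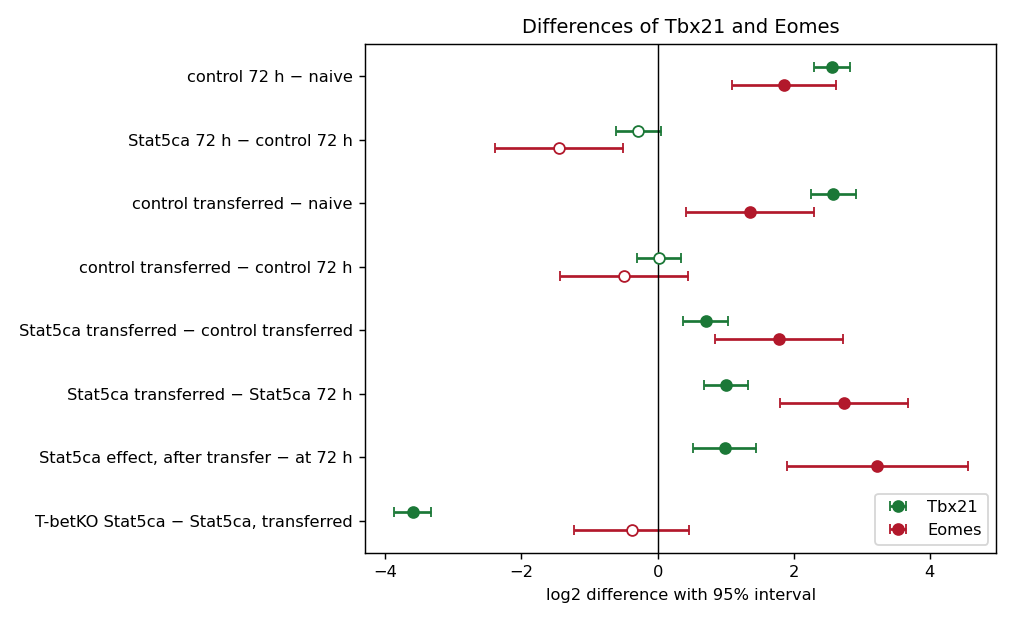
Log2 differences of Tbx21 (green) and Eomes (red) with 95% intervals from limma in the 8 main comparisons; filled points have an adjusted p under 0.05. Both genes rise on activation and with Stat5ca after transfer, neither is called for Stat5ca at 72 h, and in T-betKO cells Tbx21 is far below 0 while the interval of Eomes spans it.

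What Stat5ca cells express without T-bet was asked after transfer, in T-betKO Stat5ca cells (n = 3) against Stat5ca cells (n = 4). Tbx21 itself, the targeted gene, fell by 3.60 ± 0.13 (adjusted p = 5.08e-11), the 13th largest change of 19938 genes, to 8.24 ± 0.09 (SD, n = 3), which is above the background of 7.32. Where the probe set lies relative to the deleted part of the gene is not given in the sources used here. Eomes differed by −0.38 ± 0.40 (adjusted p = 0.558; 95% interval −1.22 to 0.46), where 20.8% of genes were called. It was −0.71 from the Stat5ca cells in the day 14 arrays and 0.28 above them in the day 54 array. Against naive cells Eomes was 2.76 higher in T-betKO cells (adjusted p = 0.000137; 22.5% of genes called), and against Stat5ca cells at 72 h 2.36 higher (adjusted p = 0.00119; 30.9% called), a call lost with the myeloid list as a covariate (2.14, adjusted p = 0.0968). Genotype cannot be told apart here from strain, stimulus, labelling protocol and day. Stat5a was also lower in T-betKO cells, at 10.86, 10.89 and 11.06 against 11.54 to 11.81 (−0.75 ± 0.11, adjusted p = 0.00033).

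Of the 21 genes that T-bet or Eomes activate, 17 fell in T-betKO cells, 1 rose and 3 were not called. The median change was −1.11, against −0.02 over all genes, of which 13.8% were called lower. Klrg1 fell by 2.51 ± 0.35, S1pr5, an exit receptor for circulating effector cells, by 2.30 ± 0.29, and Cxcr3 fell by 1.87 ± 0.21. Prf1 fell by 1.53 ± 0.24 and Ifng by 1.50 ± 0.29. Gzmb was not called (−0.55 ± 0.30, adjusted p = 0.216), nor were Ccl3 and Xcl1. Il10 rose by 2.09 ± 0.39, or 0.42 counted from background, and was not called with the RNA integrity number as a covariate (1.43) or without the day 14 arrays (0.51).

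Of 14 genes that the T-box factors restrain, 11 rose and 3 were not called, with a median change of 1.17, where 7.03% of all genes were called higher. The largest rises were of type 2 genes: the receptor genes Ccr4 (4.11 ± 0.21) and Ccr8 (3.90 ± 0.19, or 3.25 counted from background), and the cytokine genes Il13 (4.02 ± 0.42), Il5 (3.36 ± 0.71, or 1.97) and Il4 (1.33 ± 0.21, or 0.96). Maf, Ahr and Rora, factors linked to type 17 and type 2 cells, rose by 2.04 ± 0.37, 1.80 ± 0.24 and 1.004 ± 0.072. Il17a rose by 0.39 ± 0.10, or 0.26 counted from background, and Il17f and Il21 were not called.

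The RNA integrity number was 7, 6 and 8 in T-betKO arrays and 8 or 9 in Stat5ca arrays. With it as a covariate 9 of the 17 falls and 7 of the 11 rises were counted. The largest called rises and falls in this comparison, up to 3 of each per gene list, numbered 18 genes. In the fit with the RNA integrity number 10 of them kept direction and call and 8 did not. That fit called 1379 of 19938 genes, against 4155 in the main fit. Without array 40 alone the falls numbered 10, where 1790 genes were called. Falls and rises were also fewer without the day 14 arrays, a fit that leaves array 41 alone in its group. Of the 9 T-cell markers 5 fell, Cd8a by 0.47 ± 0.15, and 1 rose, Cd5 (0.59 ± 0.10). Over all genes 13.8% were called lower and 7.03% higher. Of 4 markers of CD4 T cells, Cd40lg and Foxp3 rose by 2.26 ± 0.12 and 1.79 ± 0.19, while Cd4 differed by 0.71 ± 0.28 (adjusted p = 0.0806) and Zbtb7b by 0.27 ± 0.25 (adjusted p = 0.511). Of the 7 NK markers Klrb1c fell by 2.51 ± 0.35 and the others were not called, with the list at 8.97 to 9.43 against 9.13 to 9.67. The myeloid list was 10.52 to 12.14 against 9.56 to 10.41, with 2 of its 18 markers called higher, and 4 of the 9 B-cell markers rose. The part of these cells in the list counts was not tested.

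**Figure D4:**
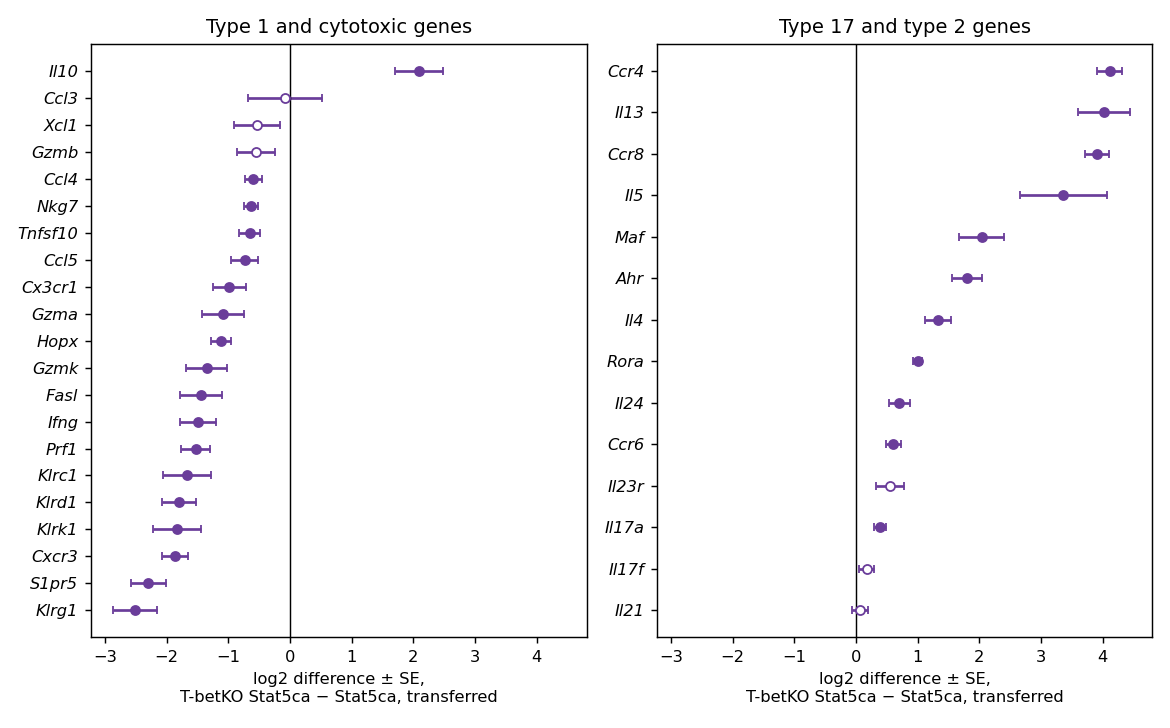
Log2 difference, T-betKO Stat5ca minus Stat5ca cells after transfer, with SE from limma, for the 21 genes that T-bet or Eomes activate (left) and the 14 they restrain (right); filled points have an adjusted p under 0.05. On the left 17 filled points lie below 0, down to −2.51 for Klrg1, and on the right 11 lie above 0, up to 4.11 for Ccr4.

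The 2 genes were also set against each other array by array. The difference Eomes minus Tbx21 was taken on each array. Its change between groups was tested with exact two-sided permutation tests, 7 in all. With these group sizes no p adjusted over the 7 (Benjamini-Hochberg) could fall under 0.05, so the absence of calls is no result. The smallest p possible was 0.0667 where 1 group had 2 arrays and 0.0286 otherwise. Stat5ca cells after transfer exceeded transferred control cells by 1.07 and Stat5ca cells at 72 h by 1.73, with no overlap (exact p = 0.0667 each, the smallest that 4 against 2 allow; 0.117 adjusted). Transferred control cells were 1.22 lower than naive cells, also with no overlap (exact p = 0.0667, 0.117 adjusted). Activation changed it by −0.71 with overlapping groups (exact p = 0.429, 0.5 adjusted). From control to Stat5ca cells at 72 h the change was −1.17 with no overlap (exact p = 0.133, 0.187 adjusted). From control cells at 72 h to transferred control cells it was −0.51 with overlapping groups (exact p = 0.6, 0.6 adjusted). In T-betKO cells the difference was 3.22 above that in Stat5ca cells, a description only, since the targeted gene is 1 of its terms.

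The genes whose levels ran most like each factor over the 19 arrays were listed among 13752 genes above background in some group, with Pearson's r as the measure and no test. For Tbx21 they were Cxcr3 (r = 0.901, Spearman's rho 0.877), Chpt1 (0.889), Dennd4c (0.875), Nedd4 (0.873) and Dapk2 (0.867). For Eomes they were Stk32c (r = 0.949, rho 0.942), Rexo2 (0.940), Endod1 (0.936), Eif5a (0.927) and Pno1 (0.927). Eomes was 3731st in the list for Tbx21, and Tbx21 was 2201st in that for Eomes. Arrays of a group share their condition, so these points are not independent. Over the 16 TCRP1A arrays alone the list for Tbx21 was headed by Il2rb (0.986), Cxcr3 (0.983) and Klrk1 (0.977), with 1 of 5 genes shared, and that for Eomes by Slc25a53 (0.961), with 2 of 5 shared.

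Of 13 further T-box family members measured, Tbx4, Tbx5, Tbx15, Tbx18, Tbx20, Tbx22 and Tbr1 were under background in all 6 groups. Tbx1, Tbx2, Tbx3, Tbx6 and Mga were above it in all 6, and Tbx19 in 3. Group means of Tbx1 (7.55 to 7.82) and Tbx3 (7.40 to 7.61) were close to the background of 7.32. Mga, which also carries another DNA-binding domain, had group means of 9.90 to 10.60. Tbx6 was called in 5 of the 8 comparisons and was highest in Stat5ca cells at 72 h (9.51), 0.72 ± 0.16 above control cells, a call lost without either Stat5ca array. Tbx19 rose by 0.55 ± 0.11 on activation. After transfer no call was made among the 13 with Stat5ca (25.4% of all genes called) or between T-betKO and Stat5ca cells (20.8%). Over the 8 comparisons the share of all genes called ran from 5.72% to 46.8%.

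**Figure D5:**
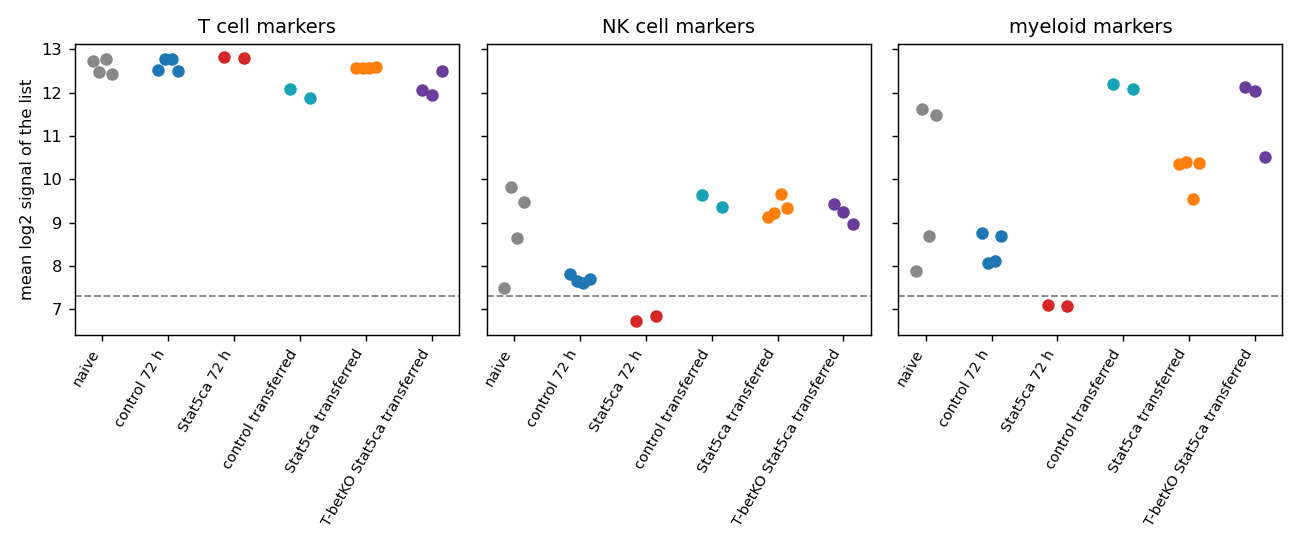
Mean log2 signal of the T-cell, NK-cell and myeloid marker lists on each of the 19 arrays, by group, with the background of 7.32 as a dashed line. The T-cell list lies between 11.88 and 12.82 throughout, the NK list is lowest in Stat5ca cells at 72 h and higher after transfer, and the myeloid list ranges from 7.08 to 12.21.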

How the data were processed

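RNA from purified CD8 T lymphocytes (0.125 µg per array) was measured on 19 Affymetrix mouse gene arrays, grouped by their labels. For each probe set the authors deposited a log2 signal made with Affymetrix Expression Console, per the submitters' processing notes. Which version, summarization and normalization they used is not given in the sources used here. The log2 scale was read from the range of the values (3.13 to 14.94). They were used as deposited; array medians lay between 7.69 and 7.89, and the number of arrays limits the precision.

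Of the probe sets, 21789 carried 1 gene, 1621 several and 12147 none. Each of 19938 genes was represented by its brightest probe set. Background was the 95th percentile of 1194 receptor genes. Changes counted from background set lower group means to that level.

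The limma package (3.58.1, R 4.3.3; lmFit, then eBayes without trend) was applied to the 16 TCRP1A arrays in 1 fit, or to all 19 for T-betKO comparisons. A gene counted as called below an adjusted p of 0.05 (Benjamini-Hochberg, all genes). Errors are standard errors from limma or, for group means, SD. The calls were tested on simulated data. Eomes minus Tbx21 was tested with exact permutation tests.

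The members, 5 gene lists (98 of 110 genes measured) and 6 marker lists (54 of 58) were chosen with earlier results of these data known. The text names both members, Stat5a and Stat5b in the comparisons, up to 3 called rises and falls of each list, the 5 genes most like each member and the defining markers; other list genes, and Xist, were named after their values were seen. Alternatives are in the closing section. Software besides limma was Python 3.11.15 (numpy 2.4.6, pandas 2.3.3, matplotlib 3.10.9).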

Additional observations from a re-analysis of the deposited data

Results flagged for a closer look

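For both genes the Stat5ca effect, the difference of Stat5ca from control cells, was unlike at 72 h and after transfer by the interaction test. The difference of the effects was 0.985 for Tbx21 (limma adjusted p = 0.00574) and 3.23 for Eomes (adjusted p = 0.00263). For Tbx21 the effect was −0.28 at 72 h and 0.70 after transfer, and for Eomes −1.45 and 1.78. The 72 h control arrays 1 and 4 and transferred control array 32 had Xist under background, and 4 of the 12 arrays of this interaction did in all.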

How the results depend on the processing

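Each array left out in turn, 10 other planned settings and, where they applied, fits without naive pairs or the day 14 arrays were tried. Fits with Xist as a covariate or without pairs of control 72 h arrays were chosen after seeing the data. Over the 8 main comparisons Tbx21 kept its direction and call in 150 of 157 alternatives and Eomes in 133 of 157. The cause of the changes below was not tested.

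The Eomes rise of transferred control over naive cells lost its call with only those groups fitted (1.36), all 19 arrays (1.36), a trend and robust prior (1.36), median centring (1.37), the RNA integrity number (1.05), the myeloid list (1.05) or Xist (0.97) as a covariate, and without naive arrays 34 and 36 (1.40) or 33 and 35 (1.33); with 1 array left out it was 0.95 to 1.77. The Eomes difference of Stat5ca from control cells at 72 h gained a call with array weights (−1.99), Xist (−1.49) and without control arrays 2 and 3 (−2.33), and ran from −1.78 to −1.15 with 1 array left out, called without control array 2 or 3. Transferred against 72 h control cells, Eomes was called with array weights (−1.03) and without arrays 2 and 3 (−1.37), and was 0.39 without arrays 1 and 4; it ran from −0.90 to −0.08. Tbx21 there turned to −0.0086 with median centring, −0.34 with the myeloid list and −0.066 without arrays 1 and 4, and ran from −0.10 to 0.14. With Stat5ca after transfer the differences ran from 0.59 to 0.82 for Tbx21 and 1.37 to 2.19 for Eomes. The T-betKO difference of Eomes was 0.28 without the day 14 arrays and ran from −0.71 to −0.14. Between transferred control and Stat5ca 72 h cells Tbx21 was −0.18 with the myeloid list, and between Stat5ca 72 h and naive cells Eomes was −0.0024 with Xist.

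The number of genes called moved by over 1.5 times in several settings. For transferred control against naive cells it was 3538, and 323 with only those groups fitted, 785 with the myeloid list, 5767 without naive arrays 34 and 36, 1718 without 33 and 35, and 1586 or 840 without control array 30 or 32. For Stat5ca at 72 h it was 1140, and 4604 with array weights, 329 without control arrays 1 and 4, 2883 without 2 and 3, and 98 to 1794 with 1 array left out. For T-betKO cells it was 4155, and 6870 with array weights, 1379 with the RNA integrity number, 715 without the day 14 arrays, and 2614 or 1790 without array 39 or 40. Between transferred and 72 h Stat5ca cells it was 4243, and 6790 with array weights and 2574 or 2144 without array 9 or 10. For the interaction it was 3549, and 6096 with array weights, 2330 or 1985 without array 9 or 10, and 2225 without array 32. With Stat5ca after transfer it was 5058, and 3251 with the myeloid list and 3032 or 2716 without array 30 or 32. Between transferred and 72 h control cells it was 7476, and 3772 with the myeloid list.

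No paired analysis was possible because the arrays of different groups share no replicate numbers.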
